A study of Arabidopsis thaliana with 36 samples.

Results

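The comparison described here is the earliest peptide treatment in Arabidopsis shoots: tpst shoots after 30 min with 10 nM phytosulfokine (PSK) against untreated tpst shoots. Its members are the 3 PSK 30 min libraries and the 3 untreated libraries, which are 6 of the 36 libraries of the series and were chosen by their labels. The other 30 libraries were untreated wild-type (WT, Col-0) shoots, tpst shoots after 2 h, 5 h or 11 days with PSK, and the matching roots, in groups of 3. All plants were 11 days old and were grown in liquid medium with sucrose under long days. tpst is a T-DNA insertion mutant in Col-0, studied as 1 allele, that lacks tyrosylprotein sulfotransferase, the enzyme that sulfates PSK and other peptide hormones, so every plant compared here carried that mutation and the 30 min group also received the finished peptide. Growth medium was exchanged for the 30 min, 2 h and 5 h PSK groups only, so PSK and the medium exchange cannot be told apart in the 30 min comparison. Plants of the 11 day group had PSK in their medium from germination on, and untreated tpst and WT plants had no exchange. The hour of harvest is not given in the sources used here. Each replicate pooled 18 seedlings, from which shoots and roots were taken separately, and the 3 replicates of a group are described as independent.

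PSK is a small sulfated peptide that plants secrete and perceive with leucine-rich repeat receptor kinases, of which PSKR1 is the main one in Arabidopsis. It is known for promoting cell expansion and growth and for modulating immune responses. A pair of further pathways is outlined as background for gene lists used below. Under low oxygen, transcription factors of ERF group VII turn on sucrose synthases, pyruvate decarboxylase and alcohol dehydrogenase, which feed ethanolic fermentation, as well as a haemoglobin that scavenges nitric oxide. Wounding, touch and microbial patterns instead turn on, within minutes, a set of ERF, WRKY and ZAT transcription factors, U-box and RING ubiquitin ligases and enzymes of ethylene synthesis.

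The 6 libraries held 21559655 to 29091079 counts assigned to genes. TPST itself had 8.37, 6.42 and 7.58 CPM (counts scaled to a common library size, after TMM normalization, here over all 36 libraries) in the PSK 30 min shoots, against 7.15, 5.90 and 5.94 CPM in the untreated tpst shoots and 20.0, 17.1 and 17.4 CPM in WT shoots, so the transcript was reduced but still counted in the mutant. Between PSK 30 min and untreated libraries, log expression correlated at 0.9809 to 0.9845, a range that touches the 0.9839 to 0.9887 found within the groups. Sums of markers are given as CPM of the raw library totals. Summed photosynthesis genes, which define green tissue, stood at 46229 to 57200 CPM with PSK and 53355 to 55808 CPM without. The list was made for nuclear genes but also took in chloroplast genes such as PSBA, at 43 to 88 raw counts per library. None of the 61 tested was called, with a median log2 fold change of -0.12. By unadjusted edgeR p under 0.05, 18 of them were lower and 1 higher, against 1916 and 1847 of all 20811 genes tested. LHCB6 passed the adjusted p at a fall under 2-fold (-0.34, edgeR adjusted p = 0.0222). Of 18 root markers, 15 were tested and none was called, with sums of 937 to 1158 CPM and 941 to 1106 CPM. BGLU23, at 22103 to 27987 raw counts per library, made up most of these sums, so they say little about the other root markers. The summed guard cell and phloem markers overlapped between the groups, and TGG1 (27023 to 44023 raw counts) made up most of the guard cell sum. The summed meristem and young leaf markers were slightly lower with PSK (144 to 149 CPM, against 153 to 160 CPM). That sum leaned on TCP4, with 1030, 1383 and 1493 raw counts with PSK and 1397, 1515 and 1581 without. The list median was 0.01, and STM went the other way (0.37). None of the 11 tested was called, and WUS was at 0 in all 6 libraries. The part of these cell types in the results was not tested. In bulk shoots, fewer cells of a type and less RNA per cell cannot be told apart.

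Of 20811 genes tested, 75 were higher after 30 min with PSK (0.36%) and 52 were lower (0.25%), by edgeR's quasi-likelihood test with Benjamini-Hochberg adjustment, where an adjusted p under 0.05 and a change of 2-fold or more were required. These are called differentially expressed genes (DEGs). Their median log2 fold change was 1.32 for the higher and -1.31 for the lower genes, beside a median of -0.01 over all genes tested. The 6 libraries did not overlap between the groups for 74 of the 75 higher and all 52 lower DEGs, as for 25.4% of all genes tested. Of these, 22 of the higher and 15 of the lower DEGs had a mean under 5 CPM in both groups. Just inside the fold limit lay ELIP1 at a log2 fold change of 1.00, and just outside it lay PFK6, a phosphofructokinase, at 0.99.

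Untreated replicate 3 had the highest level of the untreated libraries for 53 of the 75 higher DEGs and for 33 of the 52 lower DEGs, against 36.5% of all genes tested. Without that library, 97 genes were called higher and 37 lower. Without untreated replicate 2 the numbers were 39 and 23, without untreated replicate 1 the higher genes numbered 47, and without PSK 30 min replicates 1, 2 or 3 the lower genes numbered 34, 32 or 16. All 127 DEGs kept their direction whichever of the 6 libraries was left out. That was largely fixed by the choice of genes, as the groups did not overlap for 74 higher and all 52 lower DEGs. Their significance was less even: 35 of the 75 higher and 11 of the 52 lower DEGs were called with any of the 6 libraries removed.

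The promoters shown here come from DEGs chosen after their values were seen: PUB22, WRKY11, ERF5 and ACS7, which were lower with PSK, and ADH1 and GBF2, which were higher. Every one of them holds the motif marked in it. That does not hold for all DEGs described below: WRKY22 and ATL31, both lower, had no W-box, even with the first 50 bases of the gene. GBF2 is not described elsewhere here, and it kept its call in 4 of the 6 fits without a library. Each run is the 250 bases before the annotated gene start, read 5′ to 3′ on the gene's strand from the RefSeq genome TAIR10.1, whose nuclear gene coordinates match those of the count table. Capitals mark the W-box, the core site of WRKY factors (TTGAC followed by C, T or A, on either strand), in the first 4 and the G-box (CACGTG), the site of bZIP and bHLH factors, in the last 2.
PUB22 (minus strand, chr3:19442428-19442677): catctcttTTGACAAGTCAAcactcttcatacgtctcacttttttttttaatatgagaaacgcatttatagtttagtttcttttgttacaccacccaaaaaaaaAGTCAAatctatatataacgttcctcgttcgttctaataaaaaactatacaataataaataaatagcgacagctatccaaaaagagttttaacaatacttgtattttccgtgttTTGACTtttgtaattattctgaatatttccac
WRKY11 (minus strand, chr4:15291935-15292184): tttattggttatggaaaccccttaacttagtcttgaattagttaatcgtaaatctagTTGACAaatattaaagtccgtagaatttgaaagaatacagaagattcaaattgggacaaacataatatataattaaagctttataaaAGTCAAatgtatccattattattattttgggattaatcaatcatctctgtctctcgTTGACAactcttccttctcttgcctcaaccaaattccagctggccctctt
ERF5 (plus strand, chr5:19179631-19179880): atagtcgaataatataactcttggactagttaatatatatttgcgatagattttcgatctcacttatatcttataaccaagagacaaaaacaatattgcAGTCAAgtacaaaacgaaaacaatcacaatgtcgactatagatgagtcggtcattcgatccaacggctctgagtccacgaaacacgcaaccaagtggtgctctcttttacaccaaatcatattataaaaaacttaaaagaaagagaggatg
ACS7 (plus strand, chr4:13274950-13275199): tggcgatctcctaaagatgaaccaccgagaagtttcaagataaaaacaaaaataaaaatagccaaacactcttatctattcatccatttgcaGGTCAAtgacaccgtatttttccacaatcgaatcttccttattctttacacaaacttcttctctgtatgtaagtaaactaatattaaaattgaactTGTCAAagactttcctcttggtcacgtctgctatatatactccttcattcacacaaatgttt
ADH1 (plus strand, chr1:28975005-28975254): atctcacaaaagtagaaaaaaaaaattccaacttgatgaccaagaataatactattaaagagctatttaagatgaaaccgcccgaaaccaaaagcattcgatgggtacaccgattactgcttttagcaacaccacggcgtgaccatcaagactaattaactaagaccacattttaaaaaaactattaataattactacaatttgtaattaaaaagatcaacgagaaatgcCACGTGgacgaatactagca
GBF2 (minus strand, chr4:484525-484774): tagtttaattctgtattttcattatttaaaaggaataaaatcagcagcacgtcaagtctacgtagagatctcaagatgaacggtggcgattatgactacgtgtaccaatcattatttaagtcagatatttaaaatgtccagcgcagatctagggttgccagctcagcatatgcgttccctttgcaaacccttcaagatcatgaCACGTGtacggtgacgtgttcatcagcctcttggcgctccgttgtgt

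The PUB22 promoter holds 4 W-boxes, of which the first pair lies back to back on opposite strands, and WRKY11 holds 3, ACS7 2 and ERF5 1. Over windows that also take in the first 50 bases of the gene, a W-box was present for 37 of the 52 lower DEGs (71.2%), for 36 of the 75 higher DEGs (48.0%) and for 46.1% of the promoters of 20745 nuclear genes tested. The G-box was present for 9 of the higher DEGs (12%), 7 of the lower DEGs (13.5%) and 8.56% of all promoters. The heat shock element (GAANNTTC) was found for 12 higher (16.0%) and 12 lower DEGs (23.1%), against 11.4% of all promoters. The GCC-box (GCCGCC), which ERF factors bind, was present for 3 higher (4.0%) and 3 lower DEGs (5.77%), against 2.67% of all promoters. The evening element (AAATATCT) of the clock and the CGCG box (CGCGTT) were each present for 4 or 5 DEGs of a direction, against 5.86% and 3.81% of all promoters. These are matches of letters on both strands, given as a description without a test.

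Of the lists used here, which hold 17 of the 75 higher DEGs, the hypoxia list held the most of them. Of 25 tested genes of the hypoxia list, 10 rose and none fell, with a median log2 fold change of 1.01. Of all genes tested, 0.36% rose and 0.25% fell. ADH1, the alcohol dehydrogenase that regenerates NAD+ at the end of fermentation, was measured at 702, 792 and 733 CPM in PSK 30 min shoots, against 165, 171 and 242 CPM in untreated shoots. The groups stood far apart, and ADH1 had the smallest p of all genes tested (log2 fold change 1.95 ± 0.15 SE, edgeR adjusted p = 1.96e-05). PDC1, the pyruvate decarboxylase in front of it, had 950, 1107 and 977 CPM with PSK, against 115, 201 and 350 CPM in untreated shoots. The untreated libraries of PDC1 differed widely among themselves, yet none reached the treated ones, as in nearly all higher DEGs (2.18 ± 0.35, edgeR adjusted p = 0.00498). On the 6 libraries alone, however, edgeR gave an adjusted p of 0.0635.

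The sucrose synthases, which split sucrose at a low cost in ATP, rose as well. SUS4 had 135, 151 and 128 CPM after PSK, against 24.7, 25.2 and 32.4 CPM in untreated shoots (2.33 ± 0.25, adjusted p = 0.000596). SUS1 had 283, 367 and 321 CPM after PSK, against 112, 125 and 155 CPM (1.31 ± 0.16, adjusted p = 0.000892). Both pairs of groups were separated by more than the spread within them. AHB1, the nonsymbiotic haemoglobin, had 485, 496 and 388 CPM with PSK, against 104, 148 and 217 CPM in untreated shoots (1.54 ± 0.24, adjusted p = 0.00437).

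The regulators of the list were expressed at lower levels. HRE1, a group VII ERF, had 18.3, 10.9 and 9.92 CPM with PSK and 5.46, 5.79 and 5.75 CPM in untreated shoots, so its treated libraries were scattered but all higher (1.20 ± 0.26, adjusted p = 0.0166). ERF071, also known as HRE2, had 19.4, 17.3 and 14.1 CPM with PSK and 3.01, 4.94 and 7.62 CPM without (1.69 ± 0.37, adjusted p = 0.0228). HRE1 kept its call in 3 and ERF071 in 1 of the 6 fits that left out a library. Among the proteins of unknown biochemical role on the list, AT5G10040 had 31.6, 32.8 and 25.1 CPM with PSK and 2.71, 3.90 and 7.55 CPM without (2.64 ± 0.50), and AT4G27450 showed a log2 fold change of 1.72 ± 0.27. AT2G19590 (ACO1), an ACC oxidase that makes ethylene, completed the 10 with 97.8, 87.0 and 90.0 CPM, against 42.3, 38.2 and 47.4 CPM (1.10 ± 0.15), while ALAAT1 (0.97) and PFK6 passed the adjusted p but lay under the fold limit.

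The rest of the hypoxia list did not move together. LBD41, a transcription factor gene of the core response, had 422, 217 and 164 CPM with PSK, against 160, 330 and 339 CPM in untreated shoots (-0.05 ± 0.62, adjusted p = 0.982). AT3G10040 (HRA1), a repressor of the response, had 176, 85.5 and 58.2 CPM, against 71.8, 160 and 122 CPM (-0.15 ± 0.72, adjusted p = 0.948). In both genes PSK 30 min replicate 1 was the highest and untreated replicate 1 the lowest library of its group, so the groups overlapped over a wide range. PCO1 and PCO2, plant cysteine oxidases that mark group VII ERFs for destruction, had 0.57 and 1.05 with adjusted p of 0.568 and 0.390. RAV1 (-0.66) and ANAC102 (-0.41) had the lowest values of the list and did not pass the adjusted test. Leaving out a library left between 7 and 12 genes of the list called higher, with 0 called lower in the full comparison.

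**Figure D1:**
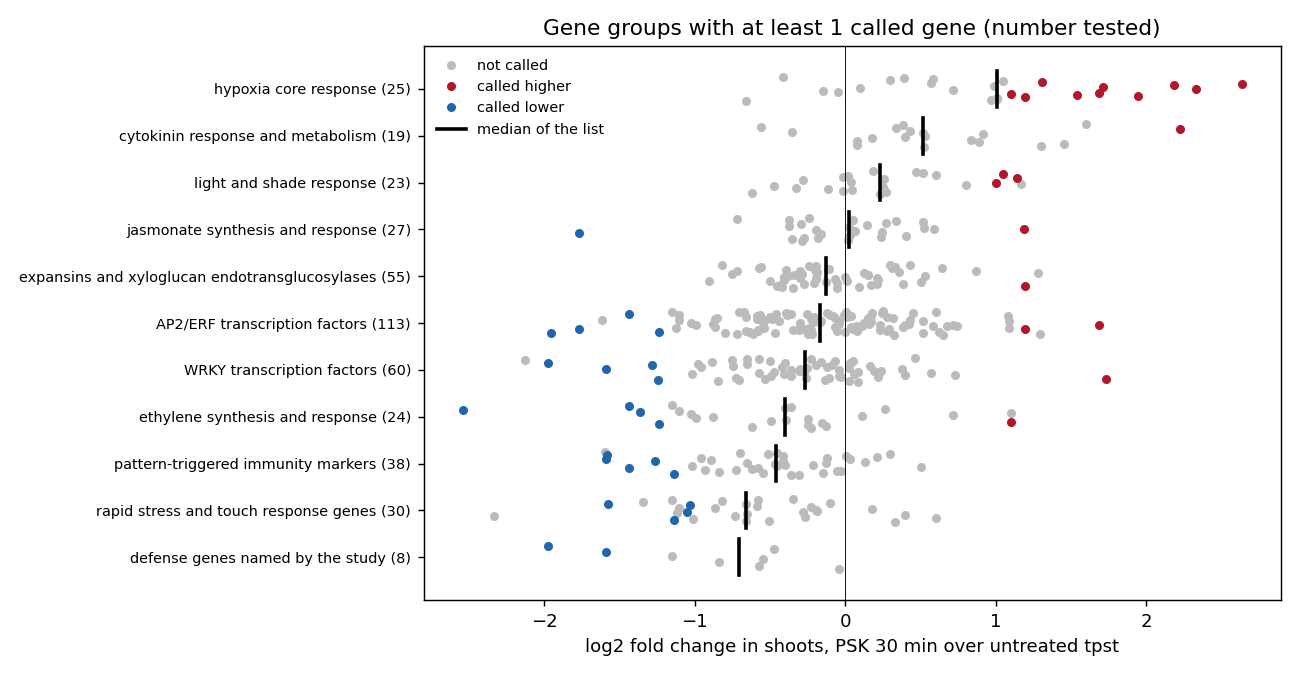
Log2 fold changes (x axis, PSK 30 min over untreated tpst shoots) of every tested gene in the lists that hold at least 1 DEG, with lists down the page and their number of tested genes in brackets; red points were called higher, blue lower, grey not called, and black bars are list medians. The hypoxia list has the highest median (1.01) and all of its 10 DEGs on the right, while the defense genes named by the study (-0.71) and the rapid stress list (-0.66) have the lowest medians.

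All but 17 of the 75 higher DEGs were in no list, and some of the unlisted ones are described here, chosen after their values were seen. ASP2, a cytosolic aspartate aminotransferase, had 617, 639 and 585 CPM with PSK and 244, 269 and 331 CPM without (1.12 ± 0.13). S-ACP-DES6, an acyl carrier protein desaturase, had 608, 512 and 525 CPM with PSK and 190, 175 and 238 CPM without (1.45 ± 0.19). PFK3, a cytosolic phosphofructokinase, had 50.1, 58.6 and 37.1 CPM with PSK and 18.4, 20.8 and 29.4 CPM without (1.08 ± 0.22). In each of these the treated libraries lay above every untreated library, as in 74 of the 75 higher DEGs. GBSS1, which makes amylose, rose by 1.15 ± 0.18, TRE1, the trehalase, by 1.01 ± 0.16 on the log2 scale, and PPT2, a plastid phosphoenolpyruvate translocator, by 1.18 ± 0.21. PFK3 and TRE1 each kept their call in 3 of the 6 fits without a library, and the other 4 enzymes in all 6. Per kilobase of transcript, ADH1 (465 CPM/kb), AHB1 (461) and PDC1 (457) were the most abundant of all DEGs in the PSK 30 min shoots.

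The largest rises among DEGs with at least 5 CPM were led by AT4G32630, an ArfGap domain protein, with 8.80, 12 and 10.1 CPM after PSK and 0.43, 0.64 and 1.70 CPM in untreated shoots (3.42 ± 0.52). AT4G26460, annotated as an S-adenosylmethionine-dependent methyltransferase, had 4.96, 4.82 and 5.82 CPM, against 0.39, 0.48 and 1.66 CPM (2.56 ± 0.44). NIP2-1, an aquaporin-like channel that is known to carry lactic acid, had 9.92, 7.44 and 4.23 CPM, against 0.52, 1.49 and 2.28 CPM (2.29 ± 0.59, adjusted p = 0.0471). Its call was lost in 5 of the 6 fits without a library. AT4G39675, AT2G26130, AT2G17850, AT1G19530, AT3G29970 and AT2G18193 made up the remainder of the top 15, with log2 fold changes of 2.20, 2.01, 2.01, 2.00, 1.74 and 1.72. AT4G39675 and AT3G29970 lost their calls whichever library was left out. AT2G26130 and its neighbour AT2G26135, which also rose (2.37), both encode RBR-type ubiquitin ligases, and reads shared between such copies could not be separated here.

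**Figure D2:**
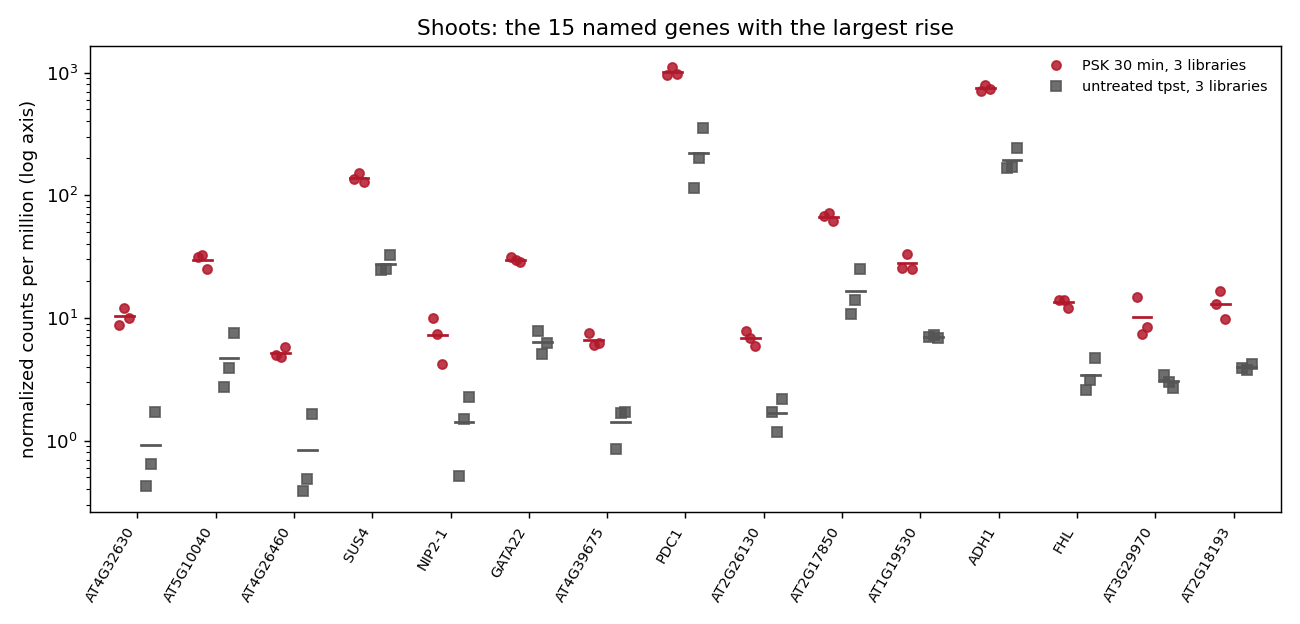
CPM on a log axis for the 15 higher DEGs with the largest log2 fold change, chosen among those with at least 5 CPM and no overlap between groups; circles are the 3 PSK 30 min libraries, squares the 3 untreated tpst libraries and bars the group means. PDC1 and ADH1 are the most abundant, and the untreated squares spread more than the treated circles for AT4G32630, AT5G10040 and PDC1.

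Light-regulated transcripts formed a smaller group of higher genes. Of 23 tested genes of the light and shade list, 3 rose and none fell, against 0.36% and 0.25% of all genes tested. The list median was 0.23. HY5, the bZIP factor that promotes photomorphogenesis, had 41.1, 38.5 and 39.3 CPM with PSK, against 19.6, 19.7 and 18.2 CPM in untreated shoots (1.05 ± 0.19, adjusted p = 0.00604). The replicates of HY5 hardly differed, and its call held in all 6 fits without a library. ELIP1 and ELIP2, early light-induced proteins that bind free chlorophyll, rose by 1.00 ± 0.19 and 1.15 ± 0.22 on the log2 scale, and each lost its call in 2 of those 6 fits. Without untreated replicate 1, HY5 was the only gene of the list called. HYH, the HY5 homolog, and CHS, chalcone synthase, passed the adjusted p under the fold limit (0.80 and 0.52), and PIF3 passed it in the other direction (-0.62).

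GATA22, a GATA factor that responds to light and cytokinin and supports chloroplast development, had 31.4, 29.7 and 28.4 CPM with PSK, against 7.87, 5.06 and 6.23 CPM in untreated shoots (2.22 ± 0.29, adjusted p = 0.00128). FHL, which carries phytochrome A into the nucleus, had 13.9, 14.1 and 12.1 CPM, against 2.58, 3.09 and 4.67 CPM (1.94 ± 0.22). The PSK 30 min libraries of these genes were close together, the untreated ones spread more in proportion, and the groups lay clearly apart. GATA22 was the only DEG of 19 tested genes of cytokinin response and metabolism, whose median was 0.52. Among the type-A response regulators, which cytokinin induces, ARR9 (0.91) and ARR8 (0.84) passed the adjusted p under the fold limit, while ARR6 (1.60, adjusted p = 0.104) and ARR7 (1.31, adjusted p = 0.185) did not pass it.

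Clock genes shifted by less than 2-fold at 30 min. Of the 11 dawn genes none was called, but LHY (0.67 ± 0.10), CCA1 (0.96 ± 0.20), RVE6 (0.61 ± 0.11) and RVE4 (0.45 ± 0.11), all morning-phased MYB factors, passed the adjusted p. CCA1 had 22.2, 23.4 and 14.4 CPM with PSK, against 10.5, 8.72 and 11.6 CPM in untreated shoots. Of the 11 dusk genes none was called, and RBG8, a glycine-rich RNA-binding protein, passed the adjusted p at -0.50 ± 0.08. The median of the dawn list was 0.42 with PSK for 30 min, then 0.95, 2.05 and 2.08 with PSK for 2 h, 5 h and 11 days, over the same untreated libraries. The part of clock phase in the other differences was not tested.

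The lower DEGs included enzymes and transcription factors of ethylene synthesis and response. Of 24 tested genes of that list, 4 fell and 1 (AT2G19590) rose, against 0.25% and 0.36% of all genes tested. The list median was -0.40. ACS7, an ACC synthase and so an enzyme of the committed step to ethylene, had 5.85, 5.34 and 6.06 CPM with PSK, against 18.6, 33.5 and 48.3 CPM in untreated shoots. Its treated libraries were nearly equal and its untreated ones ranged widely (-2.54 ± 0.47, adjusted p = 0.0102), and without PSK 30 min replicate 2 the adjusted p was 0.0509. ACS6, another ACC synthase that mitogen-activated kinases stabilize, had 37.8, 59.0 and 43.9 CPM, against 106, 119 and 137 CPM (-1.36 ± 0.28, adjusted p = 0.0158). ERF5, an ERF activator, had 21.2, 20.7 and 15.2 CPM, against 45.2, 51.2 and 58.2 CPM (-1.44 ± 0.18, adjusted p = 0.000764). ERF11, an ERF repressor, had 13.3, 16.4 and 15.8 CPM, against 32.0, 31.5 and 44.2 CPM (-1.24 ± 0.25). For all 4 genes the lowest untreated library was above the highest treated one, as for all 52 lower DEGs. The call of ERF5 held in all 6 fits without a library, while ACS6 kept its call in 3 and ERF11 in 4.

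Genes used as markers of pattern-triggered immunity fell in part. Of 38 tested, 5 fell and none rose, against 0.25% and 0.36% of all genes tested, with a median of -0.46. PUB22, a U-box ubiquitin ligase that dampens immune signaling, had 5.90, 7.34 and 6.67 CPM with PSK, against 13.8, 15.8 and 18.5 CPM in untreated shoots (-1.27 ± 0.18, adjusted p = 0.00113). WRKY22, a WRKY factor of the flagellin response, had 7.69, 9.51 and 7.79 CPM, against 18.1, 23.7 and 33.5 CPM (-1.59 ± 0.23, adjusted p = 0.00138). Both calls held without any of the 6 libraries. ATL31, a RING ubiquitin ligase, had 31.4, 22.9 and 23.8 CPM, against 50.2, 68.4 and 115 CPM (-1.59 ± 0.37, adjusted p = 0.0336). PUB23, the close homolog of PUB22, had 9.70, 18.7 and 16.1 CPM, against 31.1, 33.1 and 56.6 CPM (-1.44 ± 0.37, adjusted p = 0.0454). ATL31 kept its call in 1 and PUB23 in 0 of the 6 fits without a library, and untreated replicate 3 was the highest for each. Without that library 2 of the list were called, as without PSK 30 min replicate 1 or 3 or untreated replicate 2, and 3 were called without PSK 30 min replicate 2.

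Of 60 WRKY transcription factor genes tested, WRKY22, WRKY11, WRKY71 and WRKY72 fell and WRKY63 rose, with a median of -0.27. Of 113 AP2/ERF genes tested, 4 fell and 2 rose, with a median of -0.17. Of all genes tested, 0.25% fell and 0.36% rose. WRKY11, a negative regulator of basal resistance, had 30.2, 27.5 and 31.4 CPM with PSK, against 45.3, 67.9 and 103 CPM in untreated shoots (-1.28 ± 0.28, adjusted p = 0.021). WRKY71 (-1.24), WRKY72 (-1.98) and WRKY63 (1.74) were under 5 CPM in each library. WRKY11, WRKY71, WRKY72 and WRKY63 each kept their call in 1 of the 6 fits without a library. Of 8 defense genes that the study had named, a choice made on these samples and so no independent evidence, WRKY22 and WRKY72 fell and none rose. MLO12 (-1.15), IOS1 (-0.84), FOX5 (-0.58), PCR8 (-0.55), PME41 (-0.47) and FOX1 (-0.04) did not pass the adjusted test.

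Of 30 tested rapid stress and touch response genes, 4 fell and none rose, against 0.25% and 0.36% of all genes tested. The list median was -0.66. ZAT6, a zinc finger factor of stress and phosphate responses, had 31.3, 20.0 and 15.4 CPM with PSK, against 58.6, 61.1 and 78.5 CPM in untreated shoots (-1.58 ± 0.22, adjusted p = 0.00132). ZAT10, a related zinc finger repressor, had 68.6, 71.3 and 56.6 CPM, against 126, 134 and 173 CPM (-1.14 ± 0.25, adjusted p = 0.0222). The MYB factors MYB73 (-1.04 ± 0.22) and MYB77 (-1.05 ± 0.26) completed the 4. ZAT6 was called in all 6 fits without a library, ZAT10 in 1, MYB73 in 2 and MYB77 in 0. ZAT11 had 1.39, 1.87 and 1.93 CPM with PSK and 2.71, 6.67 and 16.9 CPM without, a wide untreated spread at which its log2 fold change of -2.34 did not pass the adjusted test (adjusted p = 0.0619). Leaving out any library but untreated replicate 1 left 1 or 2 genes of this list called, while DESeq2 on the 18 shoot libraries called 8.

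Further lower DEGs were chosen for description after their values were seen. AT2G30020 (AP2C1), a protein phosphatase that inactivates mitogen-activated kinases, had 29.8, 38.8 and 30.0 CPM with PSK, against 74.9, 55.7 and 68.9 CPM in untreated shoots (-1.01 ± 0.15). AT4G27280, a calcium-binding protein, fell by 1.23 and CML45, a calmodulin-like protein, by 1.24 on the log2 scale. In the fits without a library, AT2G30020 kept its call in 2 of 6, AT4G27280 in 1 and CML45 in 0. The mitochondrial carrier PUMP4 had 84.4, 78.0 and 52.7 CPM, against 153, 156 and 169 CPM (-1.15 ± 0.21). ERF018 (ORA47), an ERF that turns on jasmonate synthesis, had 2.06, 8.65 and 5.92 CPM, against 16.1, 16.7 and 24.9 CPM (-1.77 ± 0.45), and TIFY6B (JAZ3), a jasmonate repressor, had 51.3, 41.6 and 37.2 CPM, against 13.9, 17.9 and 25.2 CPM (1.19 ± 0.27). These were the only DEGs of 27 tested jasmonate genes, whose median was 0.02, and each kept its call in 1 of the 6 fits without a library.

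AT1G72910 and AT5G44910 are annotated as similar to disease resistance proteins, a large family for which no list was tested. AT1G72910 had 28.4, 30.1 and 21.6 CPM with PSK, against 76.5, 83.9 and 85.3 CPM in untreated shoots (-1.62 ± 0.22), and AT5G44910 fell by 1.60. Both were called in all 6 fits without a library. BEE3, a bHLH factor induced by brassinosteroid, had 1.65, 2.20 and 1.96 CPM, against 12.1, 7.03 and 5.09 CPM (-2.05 ± 0.41), whereas its relative BEE1 had 31.5, 27.0 and 24.6 CPM, against 12, 8.52 and 10.2 CPM (1.43 ± 0.24). Of the other genes in the lower top 15, AT2G17740 fell by 2.43, AT2G36690 by 2.02, AT1G07050 by 1.37 and NUDT21, a Nudix hydrolase, by 1.36 on the log2 scale. In the fits without a library, BEE3 kept its call in 3 of 6, and AT2G36690 and NUDT21 in 2 each. BEE1, AT2G17740 and AT1G07050 kept theirs in all 6.

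**Figure D3:**
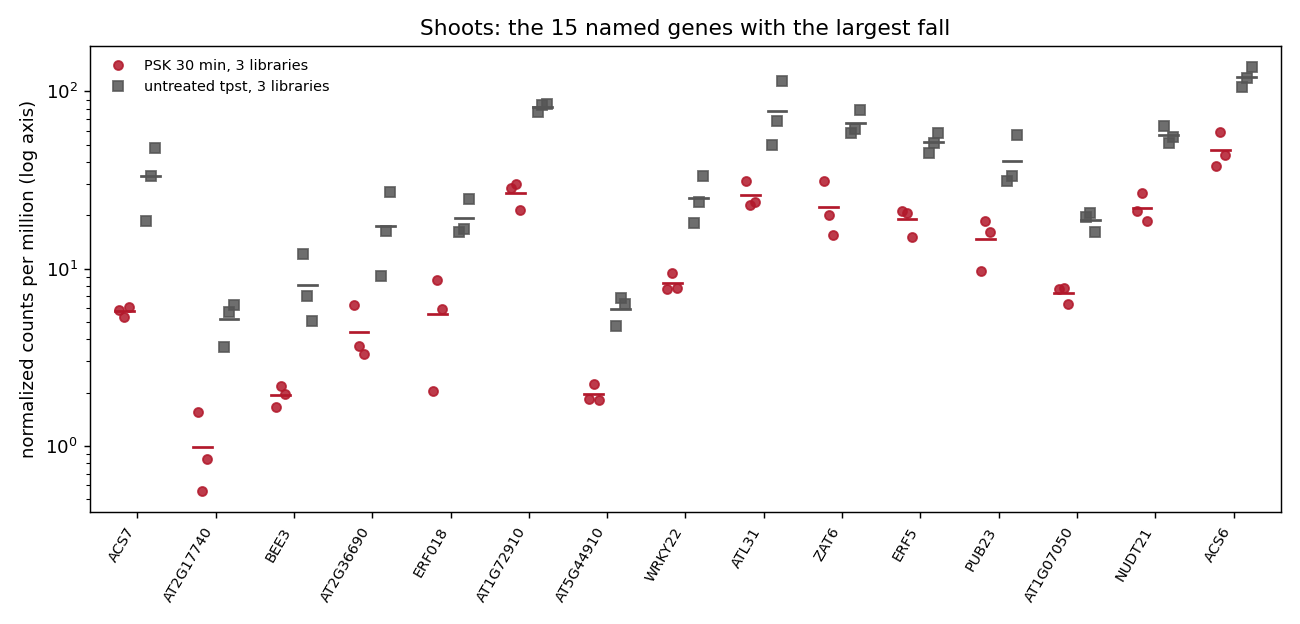
CPM on a log axis for the 15 lower DEGs with the largest fall, chosen among those with at least 5 CPM and no overlap between groups; circles are the 3 PSK 30 min libraries, squares the 3 untreated tpst libraries and bars the group means. The untreated squares of ACS7 (18.6 to 48.3 CPM), AT2G36690 and ATL31 are spread widely, and those of AT1G72910 (76.5 to 85.3 CPM) lie close together.

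Components of PSK signaling itself changed little. Of 21 tested genes of the PSK pathway and other sulfated peptides, none was called. PSKR1, the receptor, had 20.6, 23.8 and 20.7 CPM with PSK, against 26.7, 31.7 and 32.8 CPM in untreated shoots, which passed the adjusted p under the fold limit (-0.49 ± 0.11, adjusted p = 0.0223). PSKR2 (-0.00), the coreceptor BAK1 (0.21), the proton pumps AHA1 (-0.01) and HA2 (-0.26) and the channel CNGC17 (0.13) did not pass it. The PSK precursor genes PSK2, PSK3, PSK5 and PSK6, named as in the count table, ranged between -0.18 and 0.12. No gene was called on the lists for salicylic acid, gibberellin, brassinosteroid, auxin, abscisic acid, nitrate, phosphate, iron, heat shock, aquaporins, pectinesterases, carbon starvation, flavonoids, indole glucosinolates or the cell cycle. 1 of 55 expansin and xyloglucan endotransglucosylase genes rose: ATEXPA10, a wall-loosening expansin, had 151, 146 and 152 CPM, against 62.8, 57.2 and 75.6 CPM (1.20 ± 0.21, adjusted p = 0.00604). The gibberellin oxidase gene GA2OX3 and the auxin repressor gene IAA15 were called higher at under 2 CPM without being on those lists. So was ANR1, a MADS-box gene linked to nitrate, with a log2 fold change of 4.49. SMR6, of the SIAMESE-related cell cycle inhibitors, was called lower outside the cell cycle list, with a log2 fold change of -1.31. In the fits without a library, GA2OX3 kept its call in 1 of 6, IAA15 in 0, and ANR1 and SMR6 in all 6.

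Later times were set beside the 30 min values. The 2 h, 5 h and 11 day contrasts share the 3 untreated libraries with the 30 min contrast, so their values are listed and not counted as agreement. The 11 day group had no medium exchange. The 75 higher DEGs had median log2 fold changes of 1.32 at the 30 min time, then 1.91, 2.75 and 2.30 at 2 h, 5 h and 11 days of PSK. The 52 lower DEGs had medians of -1.31, -1.53, -1.87 and -1.14 at the same times. ADH1 stood at 1.95, 2.99, 4.45 and 4.09, and SUS4 at 2.33, 2.48, 2.72 and 1.99. HRE1 was at 1.20 at 30 min and at 0.48, 0.89 and 0.65 later, and ERF5 was at -1.44, -2.03, -3.41 and -1.43.

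**Figure D4:**
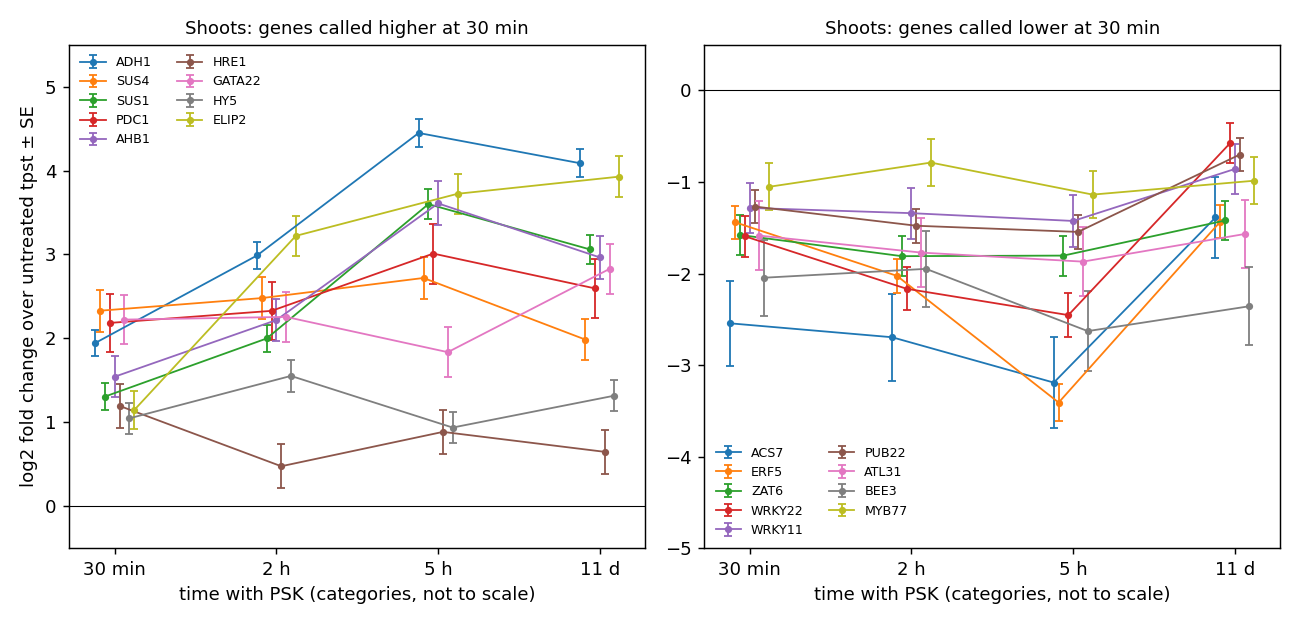
Log2 fold change over untreated tpst shoots (y axis, error bars ± SE, edgeR) for 4 lengths of PSK treatment (30 min, 2 h, 5 h, 11 days), as categories, for 9 higher DEGs (left) and 9 lower DEGs (right). All points share the same 3 untreated libraries; ADH1 reaches 4.45 at 5 h, while HRE1 is highest at 30 min (1.20).

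Between 2 h and 30 min with PSK, which leaves the untreated libraries out, 111 genes were higher at 2 h (0.533%) and 96 lower (0.461%). Of the 127 DEGs, 11 differed, and as the 30 min libraries enter both calls this is a description. ELIP2 had 110, 167 and 199 CPM at 2 h, against 41.7, 33.7 and 37.2 CPM at 30 min (2.08 ± 0.22), and ELIP1 differed by 1.81. AT2G18193, an AAA-ATPase, had 85.3, 96.6 and 108 CPM at 2 h, against 12.9, 16.6 and 9.72 CPM at 30 min (2.88 ± 0.21). ADH1 (1.04), GBSS1 (1.46), UGT73C1 (1.58), GSTU17 (1.05) and ICL (1.06) were also higher at 2 h, and AT2G25297 (-1.25) was lower. Of the lower DEGs, BCA3, a carbonic anhydrase, fell further (-1.29), and MOT1, a molybdate transporter, was higher at 2 h (1.12), at 7.81, 7.31 and 7.40 CPM, against 3.13, 3.90 and 3.28 CPM at 30 min.

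WT shoots, which make their own sulfated peptides, are given for orientation over the same untreated tpst libraries. The DEGs had median WT over tpst log2 values of -0.13 for the 75 higher and 0.15 for the 52 lower genes. SUS4 was at 4.55, 5.62 and 7.33 CPM in WT shoots, and so on the other side of untreated tpst from the PSK 30 min libraries (-2.24 ± 0.27). AT2G36690 was at 6.21, 3.67 and 3.32 CPM after PSK and at 70.1, 60.9 and 71.0 CPM in WT shoots, against 9.07, 16.4 and 27.1 CPM in untreated tpst shoots, so PSK 30 min and WT also lay on opposite sides. FHL was at 5.46, 7.98 and 7.38 CPM in WT, between the PSK 30 min and the untreated tpst libraries. BCA3 was at 10.2, 5.25 and 11.0 CPM after PSK and at 5.74, 3.88 and 4.86 CPM in WT, against 21.0, 17.6 and 24.7 CPM in untreated tpst.

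Roots of the same treatment were sequenced as separate libraries, but shoots and roots were cut from the same pooled seedlings, so both tissues met the same medium exchange. In roots, 17 of 21358 tested genes were called higher (0.0796%) and 80 lower (0.375%). Of the 66 higher DEGs of shoots that were tested in roots, 5 were called higher and 59 had a positive log2 fold change (89.4%, against 48.4% of all genes tested in both tissues). Of the 49 lower DEGs tested in roots, 9 were called lower and 47 had a negative value (95.9%, against 51.6%). The root medians were 0.76 and -1.11. ADH1 had 2778, 2345 and 1943 CPM in PSK 30 min roots, against 1449, 932 and 786 CPM in untreated roots (1.16 ± 0.25, adjusted p = 0.0417), and SUS1 (1.21), PFK3 (1.11), AT4G32630 (2.04) and AT4G30380 (2.50) were called as well.

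The 9 genes called lower in roots were WRKY72, PUB22 (-1.41), PUB23 (-1.50), WRKY11 (-1.10), WRKY22 (-1.69), AT5G44910 (-1.64), AT2G36690 (-2.27), SDR3B (-1.12) and AT4G20000 (-2.36). WRKY72, under 3 CPM in shoots, had 9.71, 5.26 and 8.62 CPM after PSK, against 50.8, 38.6 and 39.7 CPM in untreated roots (-2.45 ± 0.32, adjusted p = 0.00221). With replicate number as a block, 18 of the higher and 14 of the lower DEGs were called in roots. ACS7 had 4.32, 10.9 and 9.75 CPM in PSK 30 min roots, against 3.73, 7.81 and 14.3 CPM in untreated roots (-0.05 ± 0.67), while its shoot value was -2.54. The difference between tissues did not pass the adjusted test for ACS7 (adjusted p = 0.307). The test of the difference between tissues treated shoot and root libraries as independent, although they share seedlings. Over 22303 genes it gave 3 genes at an adjusted p under 0.05, and 1 of them, ELIP2, differed by at least 2-fold. For ELIP2 the root minus shoot difference in log2 fold change was -1.65 ± 0.29 (adjusted p = 0.0443), from -0.50 in roots, which did not pass the test there, and 1.15 in shoots. With the shoot and root library of the same group and number as a block, 5 genes were called and ELIP2 was not among them (adjusted p = 0.102). RLE size factors or no filter on low counts left 0 genes called, leaving out a library 0 to 24, and a block by number within each tissue 32.

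**Figure D5:**
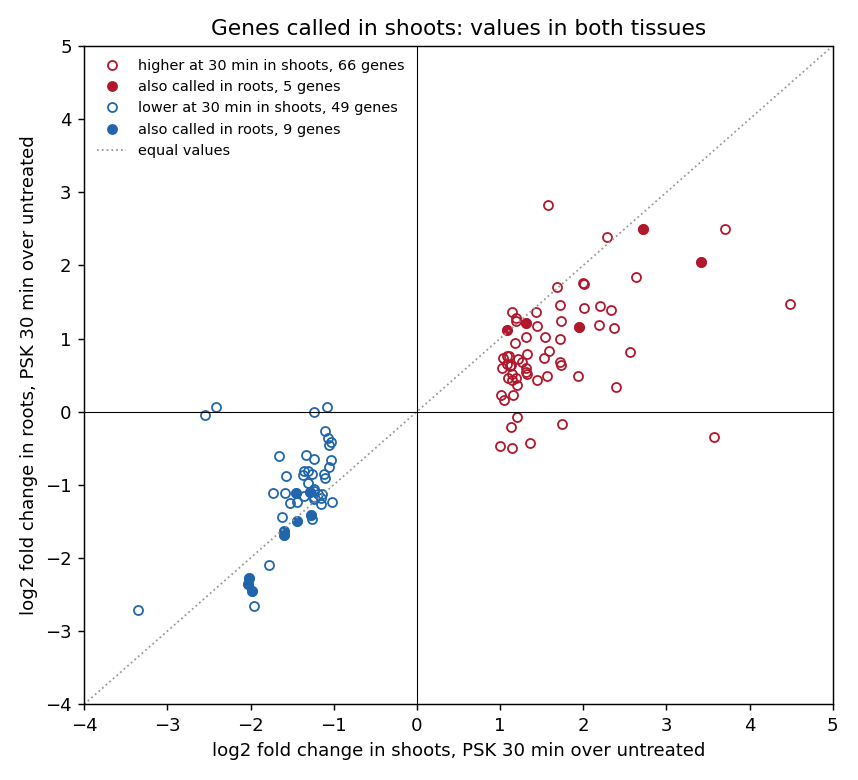
Log2 fold change, PSK 30 min over untreated tpst, in shoots (x axis) and roots (y axis) for the 115 shoot DEGs tested in both tissues; red points were called higher in shoots, blue lower, and filled points were also called in roots. Of the points, 59 of 66 red ones lie above 0 and 47 of 49 blue ones below 0 in roots.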

How the data were processed

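Total RNA of 11-day-old seedlings was sequenced as poly(A) libraries with paired reads of 150 bases. The counts were deposited by the authors as whole reads per gene for all 36 libraries, with no normalization. The submitters' processing notes name fastp, HISAT2 2.0.5, featureCounts 1.5.0-p3 and the TAIR10 build. Whether strand was used in counting is not given in the sources used here, so antisense partners and near-identical copies cannot be told apart. Deposited FPKM values and the authors' own comparisons (fold changes and p-values) were not used.

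Shoot libraries (18 in 6 groups) were fitted together in edgeR 4.0.16 (R 4.3.3) with TMM normalization, a minimum count of 10 in filterByExpr and the robust quasi-likelihood test. P-values were adjusted by Benjamini-Hochberg over all genes tested. Roots were fitted likewise, and the difference between tissues over all 36 libraries. DESeq2 1.42.0, RLE size factors, other filters, a replicate block and leaving out each library were alternatives. CPM were TMM-normalized within the fit. All p-values measure the spread between these samples.

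Genes named were the 15 highest and 15 lowest by log2 fold change among DEGs with no overlap between groups and at least 5 CPM, up to 4 DEGs of each list by smallest p or the gene with the smallest p, the top 5 of the tissue test, the study's defense genes and the PSK pathway. Other DEGs named were chosen after their values were seen. The comparison and the gene lists were chosen with earlier results of these data known. In shoots, replicate numbers were not taken to pair PSK 30 min with untreated libraries, since deviations of same-numbered libraries correlated at 0.045, 0.068 and 0.004. In roots they correlated at 0.107, 0.142 and 0.077. Shoots and roots share seedlings, and whether equal numbers mark the same seedlings is not given in the sources used here, so a block of shoot and root was added as an alternative. Within the PSK 30 min and the untreated tpst shoot groups, no pair of replicates differed by as little as sampling noise. The test was also tried on simulated counts with known changes, the results of which are not given here.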

Additional observations from a re-analysis of the deposited data

Results flagged for a closer look

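The test of the difference between tissues gave 3 genes at an adjusted p under 0.05 in edgeR over all 36 libraries, with shoots and roots of the same seedlings fitted as independent. Of them 1 passed the fold limit as well, and this count fell to 0 with RLE size factors, with no filter or without each of 7 of the 12 libraries in turn, among them PSK 30 min root replicate 1. Before adjustment, 1856 of 22303 genes had an unadjusted p under 0.05. CPM here are normalized over all 36 libraries.

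ELIP2, an early light-induced chloroplast protein, had 21.0, 22.2 and 19.4 CPM in PSK 30 min roots, against 33.2, 29.4 and 25.7 CPM in untreated roots. In shoots it had 47.9, 38.9 and 42.7 CPM with PSK, against 16.2, 19.3 and 22.4 CPM without, and only the shoot change passed its own test. The root minus shoot difference in log2 fold change was -1.65 ± 0.29 (SE), with an adjusted p of 0.0443, or 0.102 with the shoot and root library of the same group and number as a block.

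CRF6, a cytokinin response factor of the AP2/ERF family, had 5.63, 6.12 and 6.31 CPM in PSK 30 min roots, against 8.64, 6.57 and 7.73 CPM in untreated roots. In shoots it had 16.5, 17.7 and 18.3 CPM with PSK, against 11.7, 12.9 and 12 CPM without. The difference was -0.87 ± 0.15, under the fold limit, and its adjusted p was 0.0475 with that block.

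AT3G15080 had 20.5, 20.9 and 18.4 CPM in PSK 30 min roots, against 21.7, 16.7 and 19.2 CPM in untreated roots. In shoots it had 14.1, 12.7 and 12.6 CPM with PSK, against 22.0, 22.7 and 20.9 CPM without, and the difference was 0.79 ± 0.14, also with an adjusted p of 0.0475 with the block. Next by p came RH51, a DEAD-box RNA helicase (0.50), and AT5G06110 (0.59), both with an adjusted p of 0.0606.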

How the results depend on the processing

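The numbers of DEGs depended most on the fold minimum and on single libraries. Without a fold minimum, 400 genes were higher and 411 lower, 17 of the DEGs differed between 2 h and 30 min, and 3 genes differed between tissues. Leaving out a library gave 39 to 97 higher and 16 to 55 lower genes, 7 to 11 DEGs that differed between 2 h and 30 min, 0 to 5 higher and 3 to 9 lower DEGs called in roots, and 0 to 24 genes that differed between tissues. DESeq2 on the 6 libraries called 88 genes lower. DESeq2 on the 18 or 36 libraries called 19 of the higher DEGs in roots and 61 genes between tissues. RLE size factors and no filter on low counts each left 0 genes between tissues. With the replicate block, 88 genes were higher and 68 lower and kept 124 of the 127 DEGs, 18 higher and 14 lower DEGs were called in roots, and 32 genes differed between tissues. A block of the shoot and root library of the same number, added after seeing the data, gave 5 between tissues. A dispersion fit without robust estimation, chosen after seeing the data, gave 81 and 57. No alternative reversed the direction of a named gene that was called, which the separation of the groups in nearly all DEGs largely fixed. Uncalled genes near 0, such as FOX1, PSKR2, AHA1, PSK3 and PSK5, changed sign when a library was left out. Fitting the 6 libraries alone in edgeR lost the calls of NIP2-1, PDC1, AT2G36690, ERF018, ATL31, PUB23, WRKY11 and MYB73. The cause of these differences was not tested. Under 5 CPM the depth limits precision, and PSK cannot be told apart from the medium exchange at 30 min.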
